A study of Mus musculus with 4 samples.

Results

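*Tll1*, *Fmo2*, *Thsd7a*, *Zcchc12* and *Ccdc85a* are 5 of the 12814 genes in a table of RNA-seq signals from sorted cells of the newborn mouse inner ear. They were selected by symbol on the deposited values themselves, because their signal in vestibular hair cells (HCs) lay above that in cochlear HCs. That ratio is therefore described here and carries no test. No numerical limit defined the choice, and 501 genes had a larger vestibular to cochlear HC ratio than *Ccdc85a*, the member with the smallest.

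HCs are the mechanosensory cells of hearing in the cochlea and of balance in the vestibular system. All cells came from newborn *Atoh1/nGFP* mice with a C57BL/6 background, in which a transgene driven by regulatory sequence of *Atoh1*, a transcription factor of HC formation, puts green fluorescent protein into the nuclei of HCs. HCs were sorted as cells with this protein and the epithelial surface protein CD326. Epithelial non-sensory cells (ENSCs) were sorted as cells with CD326 and without the fluorescent protein, so that they hold all other CD326-positive cells of the organ and not a single type. The labels give no other allele and no treatment, and ears of several mice were pooled for each sort. The table holds 1 column for each of the 4 populations (cochlear HCs, cochlear ENSCs, vestibular HCs and vestibular ENSCs). A column is called a library here, but the study's design names triplicates, and a column may be a mean or a pool of them. No value therefore has a replicate error, no p-value is given, and the order of signals that lie close together could not be set against any spread.

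The 5 genes belong to different families. Tll1 (tolloid-like 1) is a secreted metalloproteinase of the tolloid family, which cuts the propeptides of collagens and cuts chordin, an extracellular inhibitor of bone morphogenetic proteins (BMPs). BMPs signal through serine/threonine kinase receptors and SMAD proteins, induce the *Id* genes, and take part in the formation of the sensory epithelia of the ear. Zcchc12, also known as Sizn1, is a zinc-knuckle protein described as a coactivator in the same pathway. Fmo2 is a flavin-containing monooxygenase, an enzyme that oxidises nitrogen and sulfur atoms of small molecules with NADPH. Thsd7a is a membrane protein with a chain of thrombospondin type 1 repeats. Ccdc85a is a coiled-coil protein of the small CCDC85 family.

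In the mm9 genome the members lie on 5 different chromosomes. *Tll1* (ENSMUSG00000053626) spans chr8:66493567-66684790 on the minus strand with 21 exon blocks. *Fmo2* (ENSMUSG00000040170) spans chr1:164804448-164828857 on the minus strand with 9 exon blocks. *Thsd7a* (ENSMUSG00000032625) spans chr6:12261610-12699410 on the minus strand, and its 31 exon blocks add up to 13737 bases, more than in 98.3% of genes. *Zcchc12* (ENSMUSG00000036699) is the most compact, at chrX:33735899-33739153 on the plus strand with 4 exon blocks and 2280 exonic bases. *Ccdc85a* (ENSMUSG00000032878) spans chr11:28285685-28484324 on the minus strand with 8 exon blocks. No other annotated gene shared an exonic base with any member. Stretches of 50 bases that occur elsewhere in the genome made up 1.97% of the exonic bases of *Tll1*, 0.846% of those of *Ccdc85a* and none of those of the other 3 members. The signal is per gene and is not divided by length, so levels are compared between libraries and not between genes.

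The promoters are shown because the members were chosen for a higher signal in the same cells. The 250 bases before the RefSeq start site were taken from the GRCm38.p6 build, a different build from that of the gene positions above. RefSeq has 2 start sites for *Fmo2*, of which the one farther upstream was used. The window before the other held none of the motifs described next and had a GC content of 47.6%. In GRCm38.p6 these windows are chr8:64206009-64206258 for *Tll1*, chr1:162898759-162899008 for *Fmo2* and chr6:12749254-12749503 for *Thsd7a*, all minus strand, and chrX:36195654-36195903 for *Zcchc12*, plus strand. They are printed 5′ to 3′ in the direction of the gene, and capitals mark a match to any of 6 short motifs searched on both strands.
Tll1: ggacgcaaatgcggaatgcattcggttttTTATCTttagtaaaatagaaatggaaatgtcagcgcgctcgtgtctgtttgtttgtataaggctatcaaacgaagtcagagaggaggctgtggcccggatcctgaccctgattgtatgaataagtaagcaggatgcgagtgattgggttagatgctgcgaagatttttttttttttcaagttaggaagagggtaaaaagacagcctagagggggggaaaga
Fmo2: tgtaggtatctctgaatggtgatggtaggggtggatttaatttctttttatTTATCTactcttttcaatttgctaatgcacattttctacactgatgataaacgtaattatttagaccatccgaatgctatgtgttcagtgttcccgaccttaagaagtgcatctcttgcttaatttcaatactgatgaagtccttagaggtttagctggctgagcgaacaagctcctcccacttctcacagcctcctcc
Thsd7a: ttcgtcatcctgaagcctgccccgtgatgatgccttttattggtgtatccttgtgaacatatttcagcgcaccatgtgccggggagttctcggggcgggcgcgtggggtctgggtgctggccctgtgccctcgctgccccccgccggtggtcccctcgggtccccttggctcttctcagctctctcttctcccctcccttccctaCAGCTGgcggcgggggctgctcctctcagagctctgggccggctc
Zcchc12: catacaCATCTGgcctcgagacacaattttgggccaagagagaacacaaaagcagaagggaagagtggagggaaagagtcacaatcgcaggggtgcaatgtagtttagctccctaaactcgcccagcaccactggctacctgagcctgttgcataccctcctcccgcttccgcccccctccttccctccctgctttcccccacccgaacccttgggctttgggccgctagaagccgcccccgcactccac
The capitals mark the GATA factor motif AGATAA, read on the opposite strand, in *Tll1* at position -221 and in *Fmo2* at position -199, the E-box CAGCTG in *Thsd7a* at position -45, and the E-box CAGATG read on the opposite strand in *Zcchc12* at position -244, counted back from the start site. The window of *Ccdc85a* (chr11:28584325-28584574, minus strand) held none of the 6. Of 32851 promoters of the same length, AGATAA occurred in 9.99%, CAGCTG in 13.0% and CAGATG in 14.4%. GTTGCC (an RFX motif, 10.4% of promoters), ATTAAT (a POU4 motif, 4.39%) and TATAAA (12.4%) occurred in no member. The windows overlap no bases with each other, CAGCTG reads the same on both strands, and no match overlapped another. The promoters also differed in composition. GC content was 39.6% in *Fmo2*, 43.2% in *Tll1*, 53.2% in *Ccdc85a*, 58.8% in *Zcchc12* and 65.2% in *Thsd7a*, against a median of 52.4% over all promoters, and the number of CpG dinucleotides ran from 4 in *Fmo2* to 15 in *Thsd7a* (median 6).

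The table's values are quantile-normalized, with the same set of sorted values in every library, a median of 120 and a floor of 20 that held 1412 genes in each. The totals are therefore equal and show nothing of sequencing depth, which is unknown. Near the floor, the order of genes carried no rank of their own up to a signal of 24.25 in cochlear HCs, 22.75 in cochlear ENSCs, 30.5 in vestibular HCs and 20 in vestibular ENSCs, called the tied range here. A fold is given as a lower bound where it was computed against the top of that range. Other ratios are of the signals as deposited. The labels of the sorted cells held against their markers: all 10 HC genes listed (among them *Pou4f3*, *Myo7a* and *Otof*) were at least 3-fold higher in HCs than in ENSCs in both organs, and none was 3-fold apart between cochlear and vestibular HCs (median log2 ratio 0.29). Of the genes listed for vestibular HCs, *Ocm* (57.75 in cochlear and 533.75 in vestibular HCs) and *Spp1* (51.5 and 2615.25) were higher in vestibular HCs, while *Calb2*, *Anxa4* and *Sox2* were within 3-fold. All 4 genes listed for cochlear HCs (*Gata3*, *Calb1*, *Insm1* and *Slc26a5*) were lower in vestibular HCs.

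*Tll1* had a signal of 29.25 in cochlear HCs, 59.25 in cochlear ENSCs, 2787.25 in vestibular HCs and 221.75 in vestibular ENSCs. Vestibular HCs stood alone at the top, and both vestibular libraries were above both cochlear ones. The ratio of vestibular to cochlear HCs, 95.3-fold (log2 ratio 6.57), was the largest in the table as deposited, and was in place 3 with signals raised to a floor of 50 and place 4 with a floor of 100. Vestibular HCs were 12.6-fold above the ENSCs of their own organ and 47.0-fold above cochlear ENSCs. *Tll1* was the only member of the 5 with a higher signal in vestibular than in cochlear ENSCs, by 3.74-fold (log2 ratio 1.90). In bulk libraries such as these, more cells with a transcript and more transcript per cell cannot be told apart.

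*Fmo2* had 30.75 in cochlear HCs, 22.75 in cochlear ENSCs, 2336.5 in vestibular HCs and 20.75 in vestibular ENSCs. It was thus close to the floor in 3 of the 4 libraries and high in vestibular HCs alone. The log2 ratio was 6.25 over cochlear HCs, the third largest in the table as deposited (places 5 and 6 with those floors), and 6.82 over vestibular ENSCs, a 113-fold difference that ranked 22nd of 12814 genes. No other member had a larger ratio of vestibular HCs to vestibular ENSCs. With floors of 50 and 100 this log2 ratio of *Fmo2* was 5.55 and 4.55. Its signals in the ENSCs of the 2 organs differed by 1.10-fold, and that of cochlear ENSCs lay in the tied range.

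*Thsd7a* had 24.25 in cochlear HCs, 1143.25 in cochlear ENSCs, 470.5 in vestibular HCs and 94.75 in vestibular ENSCs. Its highest library was not vestibular HCs but cochlear ENSCs, which were 2.43-fold above them. The cochlear HC signal lay in the tied range. Vestibular HCs were at least 19.4-fold above cochlear HCs, and cochlear HCs were at least 47.1-fold below cochlear ENSCs. In the vestibular system the order was the opposite, with HCs 4.97-fold above ENSCs.

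*Zcchc12* had 33 in cochlear HCs, 154.25 in cochlear ENSCs, 589.5 in vestibular HCs and 22.5 in vestibular ENSCs. Vestibular HCs were highest and vestibular ENSCs lowest, with the cochlear libraries between them in the reverse order of cell types. The ratio of vestibular HCs was 17.9-fold over cochlear HCs (log2 ratio 4.16), 26.2-fold over vestibular ENSCs and 3.82-fold over cochlear ENSCs. The log2 ratio over vestibular ENSCs was 4.71 as deposited, 3.56 with a floor of 50 and 2.56 with a floor of 100.

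*Ccdc85a* had 289.25 in cochlear HCs, 930.5 in cochlear ENSCs, 993.5 in vestibular HCs and 71.5 in vestibular ENSCs. It differed from the other members in its cochlear HC signal, which was above that of 68.4% of the genes in that library, where the other 4 members stood above 16.4% to 22.4%. Vestibular HCs were 3.43-fold above cochlear HCs (log2 ratio 1.78), just past a 3-fold threshold and place 502 in the table, which goes against a description of the gene as far higher in vestibular HCs. Vestibular HCs and cochlear ENSCs differed by 1.07-fold. The largest differences were those over vestibular ENSCs, at 13.9-fold for vestibular HCs and 13.0-fold for cochlear ENSCs.

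**Figure D1:**
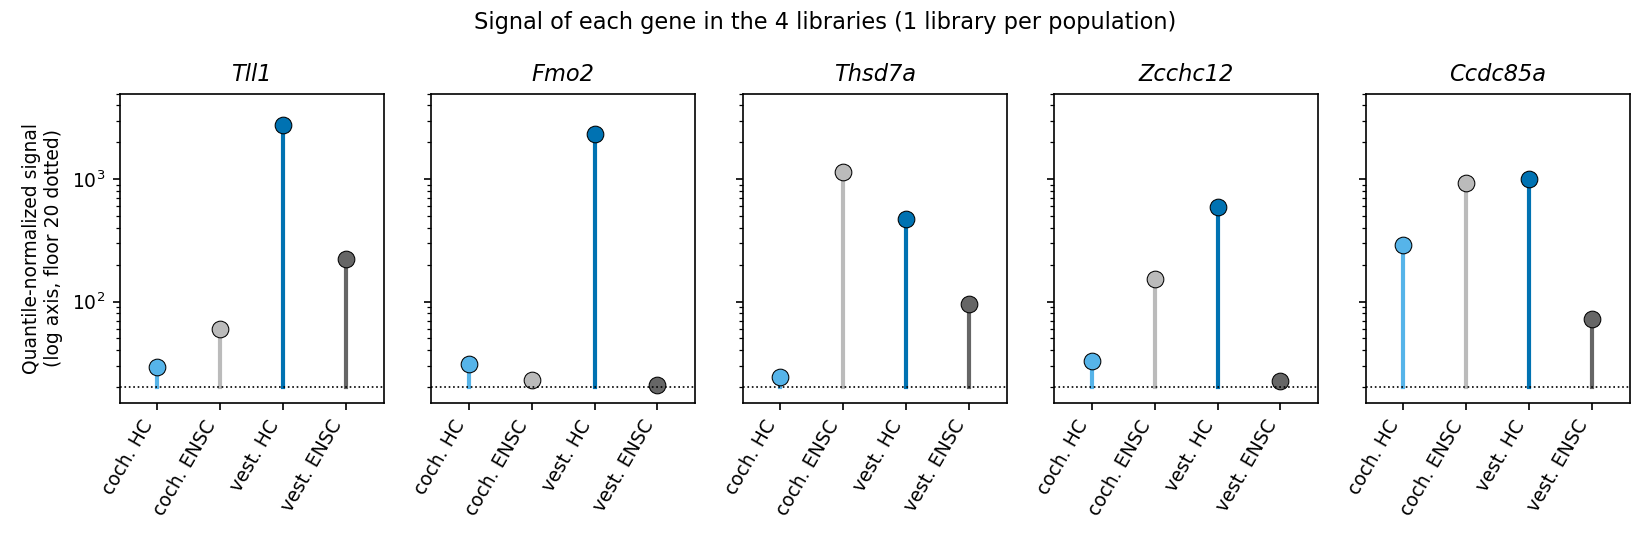
Quantile-normalized signal (vertical log axis, floor of 20 dotted) of each gene in the 4 libraries, with 1 point per library and a line from the floor. Vestibular HCs are the highest library for *Tll1*, *Fmo2* and *Zcchc12*, cochlear ENSCs are highest for *Thsd7a* (1143.25), and these libraries are nearly level for *Ccdc85a* (993.5 and 930.5).

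The contrast that served to choose the genes compared vestibular with cochlear HCs. At a threshold of 3-fold, 652 genes (5.09%) were higher and 540 (4.21%) lower in vestibular HCs, and the 5 members are among the 652 through the choice itself. Their log2 ratios ran from 1.78 to 6.57 with a median of 4.28. Among the 4999 genes whose vestibular HC signal reached 200, *Tll1* was directly followed by *Gm5844* (24.25 in cochlear and 2190.5 in vestibular HCs) and *Fmo2* by *Gm15453* (28.5 and 2127). Both are annotated as pseudogenes, whose reads may belong to a near-identical parent gene. *Thsd7a* stood in place 29 between *Oaz1*, which encodes ornithine decarboxylase antizyme, and the pseudogene *Gm13034*. *Zcchc12* stood in place 32 between *Ccdc141* (log2 ratio 4.20) and *Shisa6* (4.13), and *Ccdc85a* in place 257 between *Prune* and *Dera*, both at 1.78.

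**Figure D2:**
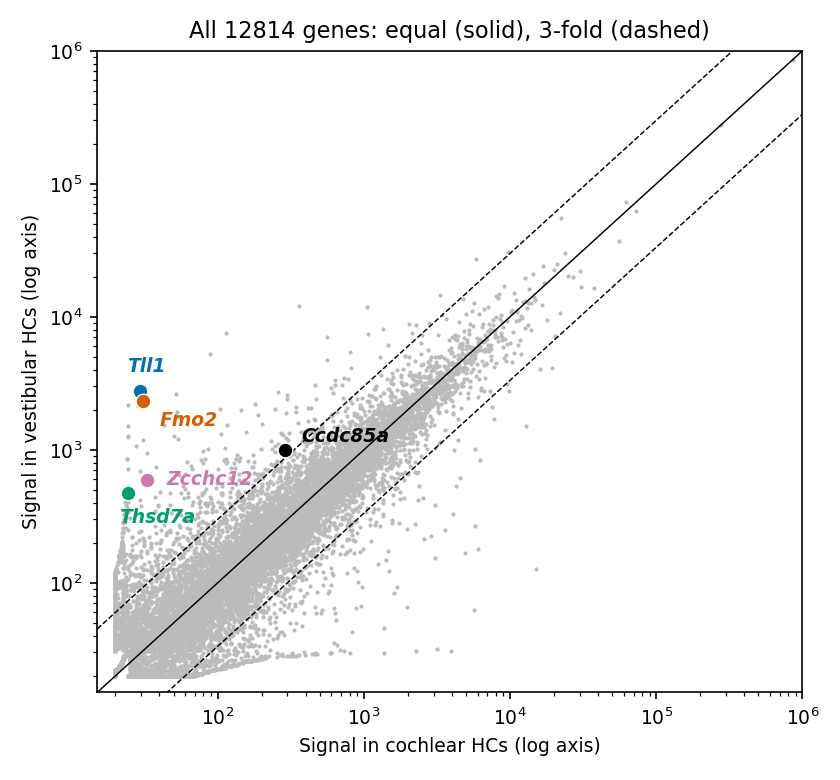
Signal of every gene in cochlear HCs (horizontal) and vestibular HCs (vertical), both on log axes, with lines for equal signals (solid) and 3-fold differences (dashed). *Tll1* (29.25 and 2787.25) and *Fmo2* (30.75 and 2336.5) lie at the upper left edge of the cloud, while *Ccdc85a* (289.25 and 993.5) lies close to the dashed line.

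The comparison of HCs with ENSCs asks whether the genes belong to HCs in each organ. Each of these contrasts shares an HC library with the choice of the genes, so a high vestibular and a low cochlear ratio are partly set by that choice. In the vestibular system all 5 members were at least 3-fold higher in HCs, against 13.8% of all genes higher and 14.3% lower (1762 and 1837 genes). The share depends on the choice: of the 652 genes higher in vestibular than in cochlear HCs, which were picked through the same vestibular HC library, 322 (49.4%) were also higher than in vestibular ENSCs. After correction of the log2 ratios for exonic length and GC content, 1887 of all genes were higher and 1285 lower in vestibular HCs than in vestibular ENSCs. The members' log2 ratios were 6.82 for *Fmo2*, 4.71 for *Zcchc12*, 3.80 for *Ccdc85a*, 3.65 for *Tll1* and 2.31 for *Thsd7a*. Across 10358 genes this ratio fell with GC content (Spearman's rho -0.395, across genes, which are not independent), and *Fmo2*, *Thsd7a* and *Ccdc85a* were in the lowest 20% of genes by GC content, at 42.6%, 43.4% and 43.4%. With the correction the members' ratios ran from 1.74 in *Thsd7a* to 6.28 in *Fmo2* and stayed past 3-fold.

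In the cochlea none of the 5 was at least 3-fold higher in HCs, which 8.39% of all genes were, and 3 were at least 3-fold lower, which 9.20% of all genes were. Of the same 652 genes, picked through the same cochlear HC library, 146 (22.4%) were lower in this way. The 3 members were *Thsd7a* (log2 ratio -5.56, with cochlear HCs in the tied range), *Zcchc12* (-2.22) and *Ccdc85a* (-1.69). *Tll1* (-1.02) was also on the ENSC side and *Fmo2* (0.43) on the HC side, both within 3-fold. For *Tll1*, *Thsd7a*, *Zcchc12* and *Ccdc85a* the ratio thus had opposite signs in the 2 organs. The vestibular minus the cochlear log2 ratio was 7.87 for *Thsd7a*, the largest of the 12814 genes with the floor of 20 and with floors of 50 and 100, 6.94 for *Zcchc12* (place 4), 6.38 for *Fmo2* (place 9), 5.48 for *Ccdc85a* (place 20) and 4.67 for *Tll1* (place 50). With a floor of 100 *Zcchc12* was in place 83. With 1 library per population these differences between organs could not be tested, and they contain the ratio on which the genes were chosen.

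The comparison of ENSCs between the organs shares no library with the choice of the genes. *Tll1* was at least 3-fold higher in vestibular ENSCs, as were 7.94% of all genes, and *Ccdc85a* (log2 ratio -3.70), *Thsd7a* (-3.59) and *Zcchc12* (-2.78) were at least 3-fold lower, as were 7.80% of all genes. *Fmo2* was within 3-fold (-0.13). With signals raised to a floor of 100, *Tll1* (1.15) and *Zcchc12* (-0.63) were within 3-fold, and *Ccdc85a* and *Thsd7a* stayed past it. The median over the members was -2.78, against 0 over all genes. *Ccdc85a* and *Thsd7a* were places 78 and 92 from the low end of this ratio. At the floor of 20 the organ difference thus ran in opposite directions in HCs and in ENSCs for 3 members and in the same direction for 1. Of the 652 genes higher in vestibular HCs, 157 (24.1%) were also at least 3-fold higher in vestibular ENSCs, which was 15.4% of the 1018 genes called there. Only 40 (6.13%) were at least 3-fold higher in cochlear ENSCs, which was 4.0% of 999. This ratio rose with GC content (rho 0.453 across 10475 genes). Corrected for length and GC content, it was 2.12 for *Tll1*, -3.23 for *Ccdc85a*, -3.26 for *Thsd7a* and -2.77 for *Zcchc12*.

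**Figure D3:**
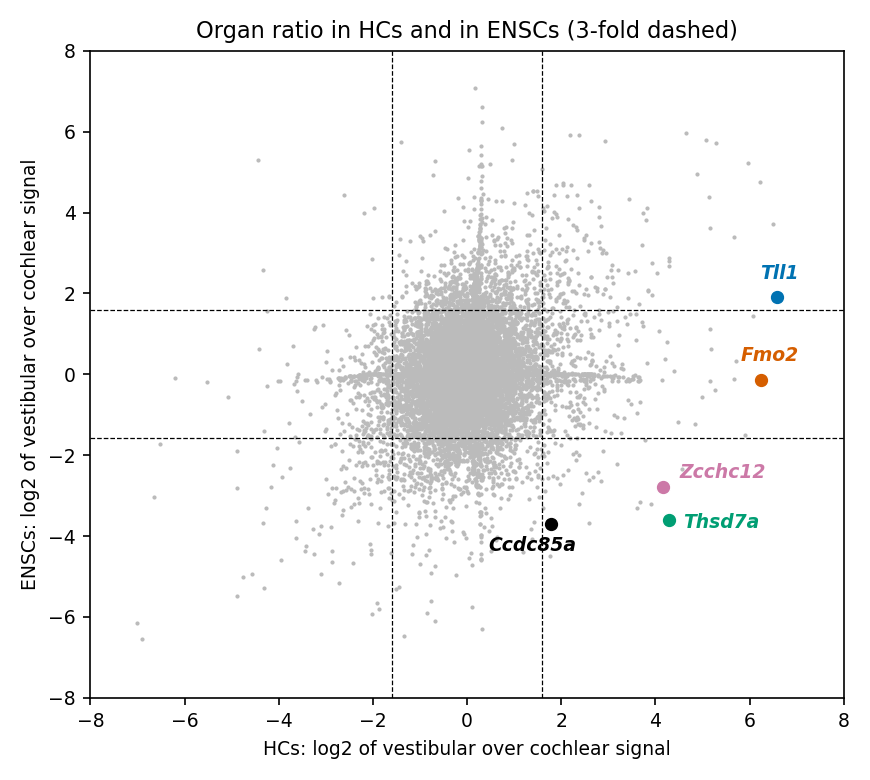
Each point is a gene, with the log2 ratio of vestibular over cochlear signal in HCs (horizontal) and in ENSCs (vertical), and dashed lines at 3-fold. *Tll1* lies at the upper right (6.57 and 1.90), *Fmo2* on the line of equal ENSC signals, and *Zcchc12*, *Thsd7a* and *Ccdc85a* at the lower right, where 40 of the 652 genes higher in vestibular HCs lie.

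Markers of other cells differed between the libraries in both directions. Of 8 mesenchyme genes listed, 7 were in the table, and their signals summed to 17264 in cochlear ENSCs, the library where *Thsd7a* was highest, with 12731 of this from *Lum* alone. The sum was 2635 in vestibular ENSCs and 1048 in cochlear HCs. Vestibular HCs had the lowest sum, 258, with 5 of the 7 genes in the tied range. Between the ENSC libraries 3 of the 7 were at least 3-fold lower in the vestibular one, and 2, *Col1a1* (58.25 in cochlear and 512.25 in vestibular ENSCs) and *Col3a1* (46.25 and 547), were higher. The 10 supporting cell genes summed to 96915 and 14543 in ENSCs and HCs of the cochlea, and to 23556 and 10678 in those of the vestibular system. *Epyc* alone made up 62028.5 of the largest sum, and the median log2 ratio of HCs over ENSCs was -1.08 for cochlear and -0.11 for vestibular cells. In the latter, 3 of the 10 were at least 3-fold lower in HCs and none higher. *Otog* was higher in vestibular than in cochlear ENSCs (10905 and 1432.75), where 4 others were lower. The 6 genes of vestibular non-sensory epithelium, among them *Oc90*, which encodes the main protein of otoconia, summed to 44772 and 1091 in ENSCs and HCs of the vestibular system, and to 6392 and 1355 in those of the cochlea. *Oc90* alone made up 37323.8 of the vestibular and 5341.75 of the cochlear ENSC sum. Between the ENSCs, 4 of the 6 were at least 3-fold higher in the vestibular library. *Kcnq1* and *Slc26a4* (281.75 in cochlear and 225.75 in vestibular ENSCs) were within 3-fold. The ENSC libraries of the 2 organs thus differed in their mixture of marker signals, and the part of this in the ENSC values of the members was not tested. For the HC contrast, the 5 glia genes summed to 2698 in cochlear and 507 in vestibular HCs, lower where the members were higher, and 4 of 7 neuron genes, all that were in the table, summed to 9349 and 9639. These neuron genes summed to 5147 in cochlear and 399 in vestibular ENSCs, of which *Isl1* alone made up 4976.25 and 339, and all 4 were at least 3-fold higher in vestibular HCs than in vestibular ENSCs (median log2 ratio 6.72), as the members were. In the cochlea 3 of the 4 were also at least 3-fold higher in HCs (median log2 ratio 4.65), where no member was. The paper states that its CD326 gate kept neurons with the fluorescent protein out of the sorted HCs. How far it did so was not tested here, nor was the part of neuron signals in the HC values of the members. *Kdr*, the only endothelial gene in the table of 5 listed, had 24.25 and 29.75 in the HC libraries, both in the tied range, and 29 in cochlear against 1461.75 in vestibular ENSCs, the direction of *Tll1*. Genes listed for blood cells and melanocytes were not analysed here.

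The families were examined to see whether related genes shared the pattern. For *Tll1*, *Bmp1*, the founding tolloid proteinase, had 66.75 in cochlear HCs, 172 in cochlear ENSCs, 28.75 in vestibular HCs (tied range) and 375 in vestibular ENSCs. In vestibular HCs *Bmp1* was thus near the floor while *Tll1* was at its highest. The procollagen C-proteinase enhancers *Pcolce* (23 in cochlear and 27.5 in vestibular HCs) and *Pcolce2* (181.25 and 34) were likewise low in vestibular HCs, and *Pcolce2* was at least 3-fold lower there. *Pcolce* was at least 3-fold higher in vestibular than in cochlear ENSCs (21.75 and 237.75), the direction of *Tll1*. *Tll2* was not analysed here.

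Of 17 tolloid substrates listed, 16 were in the table, and between HCs 1 was at least 3-fold higher and 2 lower (median log2 ratio 0.01, against 5.09% and 4.21% of all genes and a median of 0). The higher one was *Mstn*, myostatin (21.75 in cochlear and 142.75 in vestibular HCs). The lower ones were *Lox*, the collagen cross-linking lysyl oxidase, with a signal of 3178 in the cochlea against 31.75 in the vestibular system (log2 ratio -6.65), and *Chrdl1*, a chordin-like BMP antagonist (281 and 81.5). Among HCs, *Lox* was thus high in the organ where *Tll1* was low, and low where *Tll1* was high. Against the ENSCs of the same organ, 10 of the 16 substrates were at least 3-fold lower in vestibular HCs and none higher (median -2.83, against 14.3% and 13.8% of all genes), among them the collagen genes *Col1a1*, *Col1a2*, *Col2a1*, *Col3a1* and *Col5a1*. In cochlear HCs 7 were lower and 1, *Lox*, higher, against 9.20% and 8.39% of all genes. Between the ENSCs 5 substrates were higher in the vestibular library, where *Tll1* was also higher, and 2 lower, against 7.94% and 7.80%. *Col2a1* had 22405 in vestibular and 5439 in cochlear ENSCs. *Col1a1*, *Col1a2* and *Col3a1* also stand in the mesenchyme list above.

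In the BMP pathway, none of 6 ligands, 5 receptors and 8 SMADs and coactivators was 3-fold apart between vestibular and cochlear HCs (median log2 ratios -0.23, -0.02 and -0.10). Over all genes 5.09% were higher and 4.21% lower. Of the 6 ligands, 4 lay in the tied range in vestibular HCs and 2 in cochlear HCs. For the SMADs and coactivators these counts were 2 and 1. In such genes a ratio within 3-fold does not show equal signals. *Id2*, *Bmper* and *Chrdl1*, of the same pathway, were past 3-fold between HCs, and no receptor was 3-fold apart in any contrast. *Bmp2*, for example, had 187.75 in cochlear and 277.5 in vestibular HCs, *Bmpr1b* 603 and 697.75, and *Smad1* 144.25 and 370.25. Of the *Id* genes, which BMP signals induce, *Id2* was lower in vestibular HCs (1873.5 and 437, log2 ratio -2.10) and *Id1*, *Id3* and *Id4* were within 3-fold (-1.16, -1.56 and 1.37). Against vestibular ENSCs, *Id1*, *Id2* and *Id3* were lower in HCs (log2 ratios -4.07, -2.10 and -3.68) and *Id4* was higher (2.99).

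Of the 6 BMP antagonists in the table, 4 were at least 3-fold lower in cochlear HCs than in ENSCs, and between the ENSCs 1 was higher and 3 lower in the vestibular library, against 9.20%, 7.94% and 7.80% of all genes. Between HCs, *Bmper* was at least 3-fold higher in vestibular than in cochlear HCs (23.75 and 94) and *Chrdl1* lower. In cochlear ENSCs, *Nog* (noggin, 360) and *Fst* (follistatin, 1191) were at least 3-fold above cochlear HCs (23.5 and 53.75) and above vestibular ENSCs (21.5 and 20). *Bmper* had 381 in cochlear ENSCs. *Grem1* (gremlin) was higher in vestibular ENSCs, with 1045.5 against 22.5 in cochlear ENSCs. *Nog* had 60.75 in vestibular HCs, so that, as for *Thsd7a*, cochlear ENSCs were highest and vestibular HCs came next. Chordin itself was not analysed here.

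In the flavin-containing monooxygenase family, *Fmo5* was the only other member in the table of 7 listed. It had 20 in both HC libraries, 55.5 in cochlear ENSCs and 22.25 in vestibular ENSCs, and was not 3-fold apart in any contrast. The high signal of *Fmo2* in vestibular HCs was thus not shared by *Fmo5*.

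The closest relative of *Thsd7a* was *Thsd7b*, with 1784.25 in cochlear HCs, 46.5 in cochlear ENSCs, 1601.75 in vestibular HCs and 20 in vestibular ENSCs. *Thsd7b* was thus high in the HCs of both organs (log2 ratios over ENSCs 5.26 and 6.32, and -0.16 between HCs), whereas *Thsd7a* was near the floor in cochlear HCs. Of 36 genes for proteins with thrombospondin type 1 repeats in the table, 4 were at least 3-fold higher and 7 lower in vestibular than in cochlear HCs (median log2 ratio 0.01), against 5.09% and 4.21% of all genes. With *Thsd7a* those higher were *Rspo3*, an R-spondin that strengthens Wnt signals (24.25 in cochlear and 406.25 in vestibular HCs), *Thsd4* (78.5 and 290.25) and *Spon1*, F-spondin (22.5 and 91.25). *Rspo3* had 548.25 in cochlear and 1151.5 in vestibular ENSCs, so it was also low in cochlear HCs against every other library, but its highest library was vestibular ENSCs. Those lower included *Sema5b*, a semaphorin (651.25 and 34, log2 ratio -4.26), *Unc5b*, a netrin receptor (333.25 and 28.25), and the metalloproteinase genes *Adamts5*, *Adamts6* and *Adamts19*. *Thbs2* (204.75 and 44) and *Spon2* (60.75 and 20) were the others, and the fold of *Spon2* falls under 3 against 30.5, the top of the tied range. Against ENSCs of their organ, 14 of the 36 were lower in vestibular HCs and 2, *Thsd7a* and *Thsd7b*, were higher, against 14.3% and 13.8% of all genes.

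*Zcchc18*, the closest relative of *Zcchc12*, had 546 in cochlear HCs, 214.25 in cochlear ENSCs, 603 in vestibular HCs and 175.75 in vestibular ENSCs, with a log2 ratio of HCs over ENSCs that was 1.35 for cochlear and 1.78 for vestibular cells, only the latter past 3-fold. Its HC signals differed little between the organs (log2 ratio 0.14). Of the related PNMA genes, *Pnma2* ran opposite to *Zcchc12*, with 332 and 44.25 in cochlear and vestibular HCs (log2 ratio -2.91). *Moap1* (112 and 148.25) and *Pnmal2* (20 and 50.25) were within 3-fold. Of the CCDC85 family, *Ccdc85a* was the only gene in the table, and *Ccdc85b* and *Ccdc85c* were not analysed here.

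**Figure D4:**
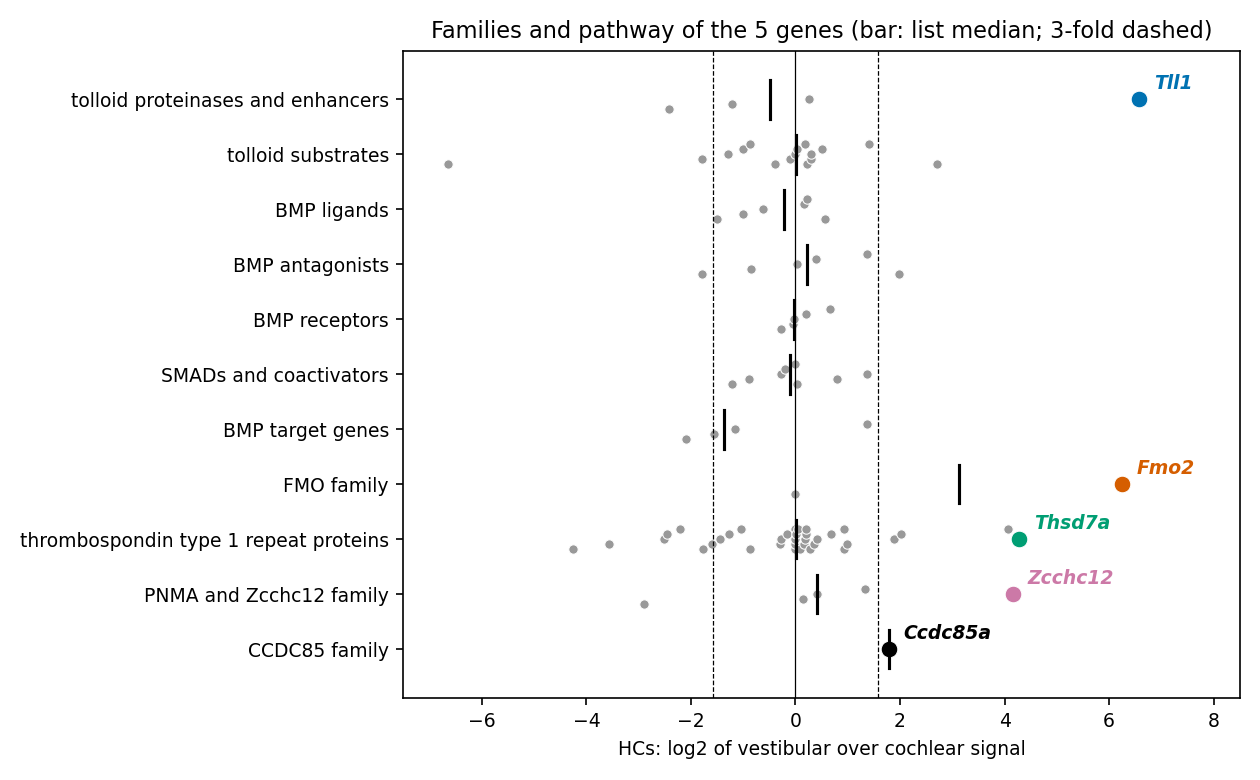
Log2 ratio of vestibular over cochlear HC signal for the genes of each family and pathway list (grey points), with the 5 members coloured, list medians as bars and 3-fold dashed. *Tll1*, *Fmo2*, *Thsd7a* and *Zcchc12* each lie to the right of all their relatives, with *Rspo3* next to *Thsd7a*, while the BMP ligands, receptors and SMADs all lie within 3-fold. Of the 6 ligands, 4 had vestibular HC signals in the tied range.

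The members were not alike among themselves. Distances between their profiles, taken as the Euclidean distance of log2 signals centred on each gene's mean over the 4 libraries, were smallest between *Zcchc12* and *Ccdc85a* (1.81), between *Tll1* and *Fmo2* (2.73) and between *Thsd7a* and *Zcchc12* (2.93). They were largest between *Fmo2* and *Thsd7a* (5.96). These values describe 4 libraries and have no error.

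Among the 6727 protein-coding genes that reached a signal of 200 in some library, the profile nearest to *Tll1* was that of *Pcdh20*, a protocadherin (distance 1.42), with 113.5 in cochlear HCs, 571.75 in cochlear ENSCs, 7597.25 in vestibular HCs and 1551.75 in vestibular ENSCs. *Spp1*, osteopontin (1.64), and *Dclk3*, a kinase (1.68), followed. Nearest to *Fmo2* were *AI593442* (0.937), *4833424O15Rik* (0.967) and *Dnahc5*, an axonemal dynein heavy chain (1.17), which had 5255 in vestibular HCs and 88 or less in each of the other libraries. All 3 were, as *Fmo2* was, high in vestibular HCs alone.

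*Thsd7a* had a very close neighbour, *Itga4*, integrin alpha 4 (distance 0.381), with 24.25 in cochlear HCs, 906.5 in cochlear ENSCs, 361.25 in vestibular HCs and 97.5 in vestibular ENSCs. The next, *Dkk2*, a Wnt modulator (1.64), and *Kitl*, Kit ligand (1.76), were far less close. Nearest to *Zcchc12* were *Ly75*, an endocytic receptor (0.927), *Trdn*, triadin (0.981), and *Samd9l* (1.21). *Samd9l* had 29.25 in cochlear HCs, 296.25 in cochlear ENSCs, 689.75 in vestibular HCs and 58.5 in vestibular ENSCs. Nearest to *Ccdc85a* were *Serpini1*, neuroserpin (0.668), *Gad1*, a glutamate decarboxylase (0.718), and *Nptx2*, neuronal pentraxin 2 (0.795). All 3 were highest in vestibular HCs or nearly level there with cochlear ENSCs, and low in vestibular ENSCs, at 20 to 29.25.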

How the data were processed

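RNA of the 4 sorted populations was amplified with the NuGEN Ovation system. The authors aligned the first 50 nt of reads to mm9 with TopHat and counted them per ENSEMBL gene with HTSeq. The methods describe quantile normalization of the 4 columns and then a floor of 20. The deposited values point to the reverse order, because tied ranges reach above 20, up to 30.5 in vestibular HCs. Signals above 20 within those ranges would then also belong to genes at the floor before normalization. What was deposited is a normalized signal for each gene, no longer a count. Tool versions, the annotation release and strandedness are not given in the sources used here, and without strand a gene and an antisense transcript cannot be told apart. The labels name polyA RNA and a Qiagen kit, whereas the methods name another kit for RNA-seq. The design text names triplicates, and the table had 1 column per population. Groups came from source names. The 2 columns headed as non-HC were read as the ENSC samples.

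Normalization removes differences in depth and total RNA, so an overall shift between populations cannot be seen.

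Ratios were log2 of deposited signals with no pseudocount, and a ratio of at least 3 was counted. With 1 library per population no test was possible. The tied range ends where the median of genes' highest signal in other libraries falls to 0.5 of its value or less. Correction used local regression (fraction 0.3, 2 iterations, statsmodels 0.14.6) on exonic length and then GC content from GENCODE for NCBIM37 (mm9), where 12799 genes were found. Calculations used Python 3.11.15, pandas 2.3.3 and numpy 2.4.6, figures matplotlib 3.10.9, and repeats BLAST 2.17.0. Scripts were tested on simulated data. Promoters are from RefSeq (GRCm38.p6), and all 5 members matched.

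The members and lists were chosen with earlier results of these data known. Named genes are the members, genes of the family, pathway and marker lists, the 3 nearest profiles, and the genes next in rank. Alternatives were floors of 50 and 100, a pseudocount of 20, thresholds of 2 and 5, median centring, raising tied ranges to their tops, the length and GC correction, and protein-coding genes only.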

Additional observations from a re-analysis of the deposited data

Results flagged for a closer look

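The HC to ENSC ratio of 4 members had opposite signs in the 2 organs, higher in HCs in the vestibular system and lower in the cochlea. The vestibular minus the cochlear log2 ratio was 4.67 for *Tll1*, 7.87 for *Thsd7a*, 6.94 for *Zcchc12* and 5.48 for *Ccdc85a*. With 1 library per population the difference was not tested, and both HC libraries also served to choose the genes. The cochlear ratio of *Tll1* (log2 -1.02) was within 3-fold.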

How the results depend on the processing

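Of 180 member log2 ratios under the alternatives, 171 kept their side of the threshold, 8 fell under it and 1 passed it. The 171 include ratios that could not move. Restriction to protein-coding genes leaves a member's own ratio as it is. Raising tied ranges changed no member ratio, because no member signal lay below the top of its range. No ratio past 3-fold changed direction, but that of *Fmo2* between ENSCs, within 3-fold, went from -0.13 to 0.42 with the length and GC correction. At a floor of 100 this ratio was 0, as were the cochlear HC to ENSC ratios of *Fmo2* and *Tll1*. Raising signals to a floor of 100 took *Zcchc12* to -0.63 in cochlear HCs against ENSCs and in vestibular against cochlear ENSCs, and *Tll1* to 1.15 in the ENSC contrast, so 0 members were then higher in vestibular ENSCs. At 5-fold, 1 member was lower in cochlear HCs than in ENSCs, 0 were higher in vestibular ENSCs, *Ccdc85a* was not called between HCs, and *Thsd7a* was not called in vestibular HCs against ENSCs. Over all alternatives, vestibular over cochlear HCs ran from 4.80 to 6.59 for *Tll1*, 4.55 to 6.29 for *Fmo2*, 2.23 to 4.30 for *Thsd7a*, 2.56 to 4.16 for *Zcchc12* and 1.71 to 1.80 for *Ccdc85a*. Counts over all genes, higher then lower, moved by more than 1.5 times as follows. Vestibular against cochlear HCs gave 392 and 295 with a floor of 50, 244 and 189 with a floor of 100, 396 and 294 with a pseudocount of 20, 1343 and 1347 at 2-fold, and 273 and 166 at 5-fold. Cochlear HCs against ENSCs gave 522 and 565 with a floor of 100, 2110 and 2232 at 2-fold, and 584 and 511 at 5-fold. Vestibular HCs against ENSCs gave 901 and 971, 3017 and 3142, and 942 and 874 under the same settings. Vestibular against cochlear ENSCs gave 517 and 450, 2213 and 2213, and 411 and 393, and 656 lower with a pseudocount of 20. With a floor of 50, *Ccdc85a* kept 0 of its 3 nearest genes, and *Tll1*, *Thsd7a* and *Zcchc12* kept 1 each. No paired analysis was possible because each population had 1 column, and leaving out a replicate was not possible for the same reason. Depth is unknown and sets no interval here.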
